A study of Mus musculus with 6 samples.

Results

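Birc5 and Mki67 are the genes described here, 2 of the 456 genes of a panel counted in single kidney cells. They were chosen as the panel's markers of dividing cells and followed as counts summed per library and cell class. The cells that held counts of both were then set beside the cells that held neither. Birc5 encodes survivin, a subunit of the chromosomal passenger complex that works with Aurora B kinase on mitotic chromosomes, and also a member of the inhibitor of apoptosis family. Mki67 encodes Ki-67, a protein that coats mitotic chromosomes and is present in cycling cells but lost from resting ones. Tubule cells of the adult kidney divide rarely. In rats, cells of the distal convoluted tubule, which take up sodium chloride through the cotransporter Slc12a3, are known to enlarge and divide when a loop diuretic raises the load of salt that reaches them.

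The furosemide group was 3 samples of kidney from wild-type C57BL/6J mice aged 16 weeks that had eaten furosemide at 70 mg/kg body weight for 1 week. Furosemide inhibits the sodium-potassium-chloride cotransporter Slc12a1 of the thick ascending limb. The vehicle group was 3 samples from mice of the same strain, age and duration without the drug. Both groups ate a gel diet with 104 µmol of sodium per kcal. Furosemide libraries 2, 4 and 6 held 3051, 4439 and 3587 cells, and vehicle libraries 1, 3 and 5 held 4082, 3316 and 3679 cells. Total counts were 4928550 to 7635509 per furosemide library and 4819988 to 6315516 per vehicle library. The authors' annotation put the cells in 15 classes. Within them, 196 barcode numbers occurred in more than 1 library, and 0 of these had identical counts. Nothing in the labels says that samples of a group came from separate animals, so p-values measure only the spread between these samples. The distal convoluted tubule class (DCT) had 1097 furosemide cells and 804 vehicle cells.

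The bases before the start of each gene are shown because both transcripts moved together in these libraries. They are RefSeq windows of 250 bases on GRCm38.p6, with chr11:117848987-117849236 on the plus strand for Birc5 and chr7:135716380-135716629 on the minus strand for Mki67. Capitals mark TTTGAA, the sequence of the cell cycle genes homology region, and CCAAT, the box bound by NF-Y, both searched on either strand.
Birc5: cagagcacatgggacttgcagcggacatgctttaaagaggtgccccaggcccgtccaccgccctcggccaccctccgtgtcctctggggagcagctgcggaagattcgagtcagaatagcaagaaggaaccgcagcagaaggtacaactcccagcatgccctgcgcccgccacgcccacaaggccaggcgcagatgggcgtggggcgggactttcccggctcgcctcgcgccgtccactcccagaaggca
Mki67: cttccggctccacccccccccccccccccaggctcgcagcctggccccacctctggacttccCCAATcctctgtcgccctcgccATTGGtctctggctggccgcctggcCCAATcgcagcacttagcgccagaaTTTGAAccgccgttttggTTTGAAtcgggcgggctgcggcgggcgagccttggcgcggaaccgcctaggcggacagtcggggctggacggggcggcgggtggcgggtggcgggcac
The Mki67 window held TTTGAA from base -116 to -111 and from base -98 to -93, counted back from the start. It held CCAAT from -188 to -184 and from -141 to -137, and its complement from -166 to -162. The Birc5 window held neither run of letters. Of 32851 such mouse windows, 16.0% held TTTGAA and 33.8% held CCAAT on either strand, so a match is a description of the letters and not a site.

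Both genes were higher with furosemide when all cells of a library were summed. Birc5 had 128, 331 and 235 counts in furosemide libraries 2, 4 and 6, against 98, 91 and 55 counts in vehicle libraries 1, 3 and 5. That is 38.1 ± 10.5 CPM (a gene's counts scaled to the total of all panel genes in the sum) with furosemide and 13.9 ± 2.22 CPM with vehicle (SD, n = 3 each). Mki67 had 77, 195 and 115 counts in furosemide libraries and 42, 43 and 27 counts in vehicle libraries. Its level was 21.1 ± 5.03 CPM with furosemide and 6.43 ± 0.749 CPM with vehicle. Every furosemide library lay above every vehicle library for both genes, as for 4.88% of the 451 genes with a count. The log2 fold change, furosemide over vehicle, was 1.54 ± 0.31 (SE) for Birc5 and 1.79 ± 0.30 for Mki67. Both passed edgeR's quasi-likelihood test, with Benjamini-Hochberg adjusted p = 0.0490 for Birc5 and 0.0264 for Mki67, beside 4.46% of 426 genes called. Birc5 lost the call under 5 other settings. Leaving out any library ended both calls, with adjusted p from 0.0569 to 0.195 for Birc5 and from 0.0555 to 0.120 for Mki67.

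The DCT carried the largest part of the furosemide counts of both genes. DCT cells held 285 of 694 Birc5 counts (41.1%) and 164 of 387 Mki67 counts (42.4%) in furosemide libraries. In vehicle libraries they held 14 of 244 Birc5 counts (5.74%) and 10 of 112 Mki67 counts (8.93%). The proximal classes together held 109 Birc5 counts (15.7%) with furosemide and 146 (59.8%) with vehicle. For Mki67, the Immune class held 33 counts with furosemide and 39 (34.8%) with vehicle. Class sizes enter these shares.

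Within the DCT, Birc5 had 48, 122 and 115 counts in furosemide libraries 2, 4 and 6, against 4, 8 and 2 counts in vehicle libraries 1, 3 and 5. In CPM these were 94.1, 173.6 and 264.3 with furosemide, against 7.99, 18.9 and 7.51 with vehicle. The lowest furosemide library thus lay above the highest vehicle library. Mki67 had 40, 64 and 60 counts in furosemide libraries and 2, 6 and 2 counts in vehicle libraries. In CPM these were 78.4, 91.1 and 137.9 with furosemide, against 3.997, 14.2 and 7.51 with vehicle. Again the groups did not overlap, as for 4.39% of 410 genes with a count in DCT cells.

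Birc5 in DCT cells averaged 177.3 ± 85.2 CPM with furosemide and 11.5 ± 6.43 CPM with vehicle (log2 fold change 3.98 ± 0.53 SE, adjusted p = 0.00517). Mki67 averaged 102.5 ± 31.4 CPM with furosemide and 8.56 ± 5.17 CPM with vehicle (3.64 ± 0.50, adjusted p = 0.00517). In this test edgeR called 4.73% of 275 genes and 2.91% higher. Neither gene had enough counts in vehicle libraries alone to pass the filter on low counts, so each passed it through the furosemide libraries. Without that filter, over all 410 genes with a count, both genes rose (3.98 ± 0.52 for Birc5 and 3.64 ± 0.50 for Mki67, edgeR adjusted p = 0.00166 for each), where 3.66% were called and 1.71% higher. Without vehicle library 5 the fold changes were 3.79 for Birc5 and 3.56 for Mki67, and neither passed (adjusted p = 0.0529 for each). Over all other settings the adjusted p ranged from 9.8e-11 to 0.0529 for Birc5 and from 5.9e-08 to 0.0529 for Mki67.

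**Figure D1:**
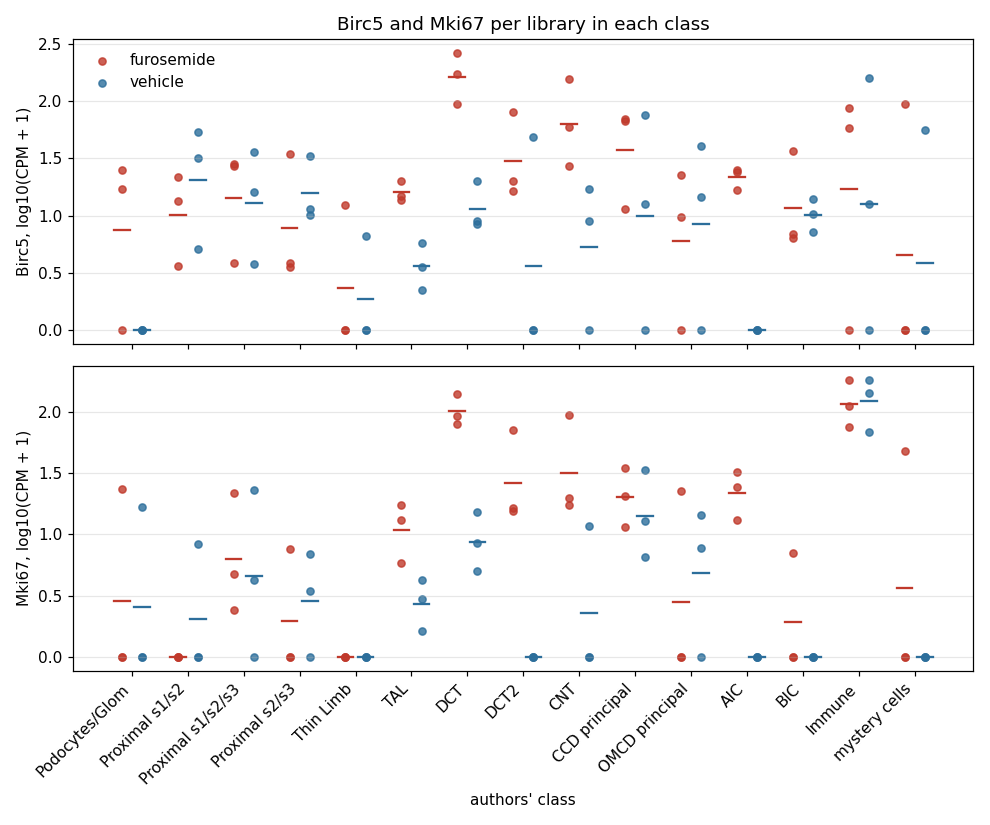
Each point is a library's level of Birc5 (top) or Mki67 (bottom) in an authors' class, as log10 of CPM + 1, with furosemide left of vehicle and a line at the mean of the log values. In DCT, TAL and CNT every furosemide point lies above every vehicle point for both genes, as for 4.39%, 5.56% and 4.88% of genes with a count there. The AIC points rest on 5 furosemide counts of each gene and 0 vehicle counts, and such a share was not computed for AIC. The Immune points of Mki67 overlap.

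Along the nephron, the furosemide order of Birc5 was DCT, then the connecting tubule (CNT, 80.4 ± 67.3 CPM), principal cells of the cortical collecting duct (CCD principal, 48.4 ± 33.0), Immune (47.9 ± 43.9) and DCT2 (38.3 ± 36.4). The other 10 classes averaged 3.83 to 31.1 CPM. In vehicle libraries the order began with Immune (56.8 ± 88.5 CPM), Proximal s1/s2 (29.4 ± 24.6) and CCD principal (28.9 ± 40.3), while DCT came after 8 other classes. The libraries of classes next to each other in these orders overlapped in each of the pairs named here, DCT and CNT with furosemide included. For Mki67 the furosemide order was Immune (121.4 ± 54.7 CPM), DCT, CNT (42.5 ± 43.4) and DCT2 (33.1 ± 31.6), again with overlapping neighbours. In vehicle libraries Immune (129.8 ± 57.5 CPM) led CCD principal (16.6 ± 14.2) without overlap, and DCT was the third.

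CNT, the segment that follows the DCT, held the next largest share of the furosemide counts after DCT. Birc5 had 13, 111 and 22 counts in furosemide libraries, against 2, 0 and 3 counts in vehicle libraries. Mki67 had 8, 66 and 7 counts in furosemide libraries, against 0, 0 and 2 counts in vehicle libraries. Furosemide library 4 supplied most of them, though every furosemide library lay above every vehicle library in CPM, as for 4.88% of 410 genes. Neither gene kept enough counts for the test. Without that filter the log2 fold changes were 3.51 ± 0.90 for Birc5 (edgeR adjusted p = 0.105) and 3.81 ± 1.14 for Mki67 (0.148), and neither passed.

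In the thick ascending limb (TAL), the segment where furosemide acts, Birc5 had 8, 16 and 14 counts in furosemide libraries and 4, 2 and 6 in vehicle libraries. Levels were 15.2 ± 3.33 CPM with furosemide and 2.88 ± 1.80 CPM with vehicle, without overlap, as for 5.56% of 432 genes. The log2 fold change of 2.51 ± 0.56 missed the threshold (edgeR adjusted p = 0.0553), and it passed under 4 of the other settings. Over all of them the adjusted p ranged from 0.00500 to 0.199, beside 4.73% of 317 genes called. Mki67 in TAL had 7, 6 and 12 counts with furosemide and 3, 1 and 4 counts with vehicle. Without the filter its log2 fold change was 2.58 ± 0.80 (adjusted p = 0.156). In DCT2, the part of the DCT next to the CNT, Mki67 had 3, 13 and 3 counts in furosemide libraries and 0 counts in each vehicle library, without overlap, as for 7.07% of 382 genes. Without the filter Mki67 did not pass there (edgeR adjusted p = 0.174). Birc5 in DCT2 stood at 19.2, 80.3 and 15.3 CPM in furosemide libraries and 0, 0 and 47.7 CPM in vehicle libraries, which overlapped (adjusted p = 0.801 without the filter).

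Elsewhere the groups overlapped or held few counts. In CCD principal cells Birc5 averaged 48.4 CPM with furosemide and 28.9 CPM with vehicle (log2 fold change 0.79 ± 1.01, adjusted p = 0.761). In the summed proximal classes it averaged 13.2 ± 12.1 CPM with furosemide and 19.1 ± 2.18 CPM with vehicle (-0.47 ± 0.62, adjusted p = 0.869), beside 0.299% of 335 genes called. In Immune cells Mki67 gave -0.27 ± 0.55 (adjusted p = 0.972). Type A intercalated cells (AIC) held 5 counts of each gene with furosemide and 0 with vehicle. By furosemide library 2, 4 and 6 these were 1, 2 and 2 counts of Birc5 and 2, 2 and 1 of Mki67. Neither gene passed there without the filter (edgeR adjusted p = 0.765 for each). Thin Limb cells held 0 counts of Mki67 in every library.

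Whether the DCT effect differed from that of other classes was tested on the difference itself, with the library as a block. For Birc5, DCT minus the summed proximal classes was 4.52 ± 0.62 on the log2 scale (edgeR adjusted p = 0.0394), the 1 gene called of 353 (0.283%). That call was lost without furosemide library 2 or 6 or vehicle library 1 or 5, with adjusted p from 0.0773 to 0.173. Mki67 in the same pair gave 4.30 ± 1.18 (adjusted p = 0.175). Against Immune cells the differences were 3.92 ± 1.26 for Birc5 (0.460) and 3.67 ± 0.69 for Mki67 (0.118). Against TAL, where 9.65% of 311 genes were called, Birc5 gave 1.36 ± 0.79 (0.343) and Mki67 1.09 ± 1.01 (0.613). Against CCD principal cells, Birc5 gave 2.87 ± 1.46 (0.380) and Mki67 3.15 ± 1.04 (0.224). Against CNT, where 0.997% of 301 genes were called, Birc5 gave 0.31 ± 1.28 and Mki67 -0.36 ± 1.45 (0.935 each). An effect confined to the DCT was therefore not shown.

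Counts of both genes came from few cells. In all classes together, 67 of 11077 furosemide cells and 16 of 11077 vehicle cells held at least 1 count of each. By library these were 0.557%, 0.698% and 0.530% of cells in furosemide libraries 2, 4 and 6, against 0.122%, 0.211% and 0.109% in vehicle libraries 1, 3 and 5. The groups did not overlap, and the exact two-sided permutation p of 0.1 is the smallest that 3 against 3 libraries allow. Cells with Birc5 alone numbered 106 in each group, and 95 of them with furosemide and 102 with vehicle had a single count. Cells with Mki67 alone numbered 67 with furosemide and 31 with vehicle.

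In the DCT, 27 of 1097 furosemide cells and 2 of 804 vehicle cells held both genes. The shares were 1.49%, 2.58% and 3.39% in furosemide libraries 2, 4 and 6, against 0%, 0.405% and 0.472% in vehicle libraries 1, 3 and 5. The means were 2.48% ± 0.954 with furosemide and 0.292% ± 0.255 with vehicle, without overlap (exact two-sided permutation p = 0.1, adjusted p = 0.4). With 2 or more counts of each gene required, 20 furosemide cells and 1 vehicle cell remained. After each cell was thinned to 500 counts and shallower cells were left out, 15 of 1088 furosemide cells and 0 of 785 vehicle cells held both genes. A count of 0 there allows a share of up to 0.382%.

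Cells with both genes were also found in other distal classes of furosemide libraries. CNT had 12 of 716 furosemide cells, by library 0.935%, 2.70% and 0.592%, against 0 of 400 vehicle cells, which allows a share of up to 0.750%. Thinning left 3 furosemide cells with both in CNT, all in library 4. TAL had 4 of 1498 furosemide cells and 0 of 2624 vehicle cells, which allows up to 0.114%. DCT2 had 3 furosemide cells and 0 vehicle cells. The proximal classes had 7 of 5316 furosemide cells and 6 of 4898 vehicle cells, and Immune had 4 of 249 furosemide cells and 4 of 297 vehicle cells. For CNT and TAL the exact permutation p was 0.1 (adjusted 0.4), the smallest possible.

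**Figure D2:**
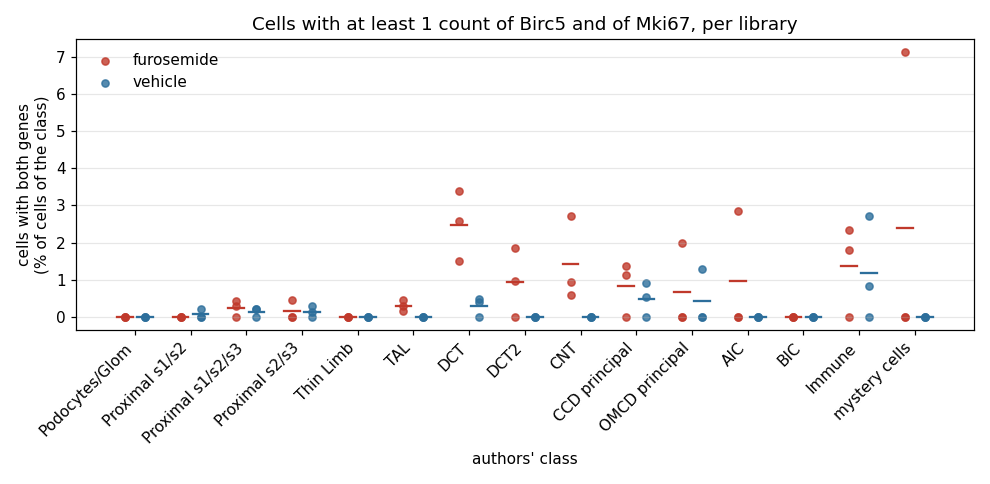
Each point is the percentage of a library's cells in an authors' class that held at least 1 count of Birc5 and 1 of Mki67, with furosemide left of vehicle and a line at the mean. DCT furosemide libraries sit at 1.49% to 3.39%, above all DCT vehicle libraries; the single high point of the mystery cells is 1 cell.

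RNA free in the suspension can be captured beside any cell, and single counts need to be read against that. Podocytes/Glom, named for podocytes, which do not normally divide, held 0 cells with both genes. It had 2 furosemide cells and 0 vehicle cells with Birc5 alone, and 2 furosemide cells and 1 vehicle cell with Mki67 alone, each at a single count. Its cells with neither gene had a median total of 636.5 counts with furosemide and 658 with vehicle, while those of the DCT had 1330 with furosemide and 1313.5 with vehicle. Of DCT cells without Mki67, 21 of 1850 held Birc5 (1.14%), and of proximal cells without Mki67, 116 of 10198 did (1.14%). By treatment the DCT share was 1.52% with furosemide and 0.626% with vehicle, and the proximal share 0.942% with furosemide and 1.35% with vehicle. Among cells with Mki67, Birc5 was found in 56.9% of DCT cells (29 of 51), 60.0% of CNT cells (12 of 20), 81.2% of proximal cells (13 of 16) and 21.1% of Immune cells (8 of 38). In each of these classes Birc5 was thus found in a larger share of cells with Mki67 than without it.

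The DCT cells with both genes held most of the class's counts of each. They carried 265 of 285 Birc5 counts (93.0%) and 140 of 164 Mki67 counts (85.4%) with furosemide. With vehicle they carried 9 of 14 Birc5 counts and 7 of 10 Mki67 counts. The 27 furosemide cells had a median of 11 Birc5 counts (1 to 20) and 4 Mki67 counts (1 to 16). Of the 16 furosemide DCT cells with Birc5 alone 14 had a single count, as had 16 of the 19 with Mki67 alone. Across the 27 cells, chosen for having both, the shares of the total taken by the 2 genes had Pearson's r = 0.65 and Spearman's rho = 0.60. These values are a description, since both genes share each cell's total and library.

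Counts per positive cell did not separate the groups in the DCT. Birc5 averaged 6.86, 4.88 and 10.4 counts per positive cell in furosemide libraries, against 1, 8 and 1 in vehicle libraries (exact two-sided permutation p = 0.3). In TAL they were 2.67, 5.33 and 4.67 with furosemide and 1 in each vehicle library (exact permutation p = 0.1). The vehicle values of the DCT rest on 7 positive cells, so this comparison had little depth.

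**Figure D3:**
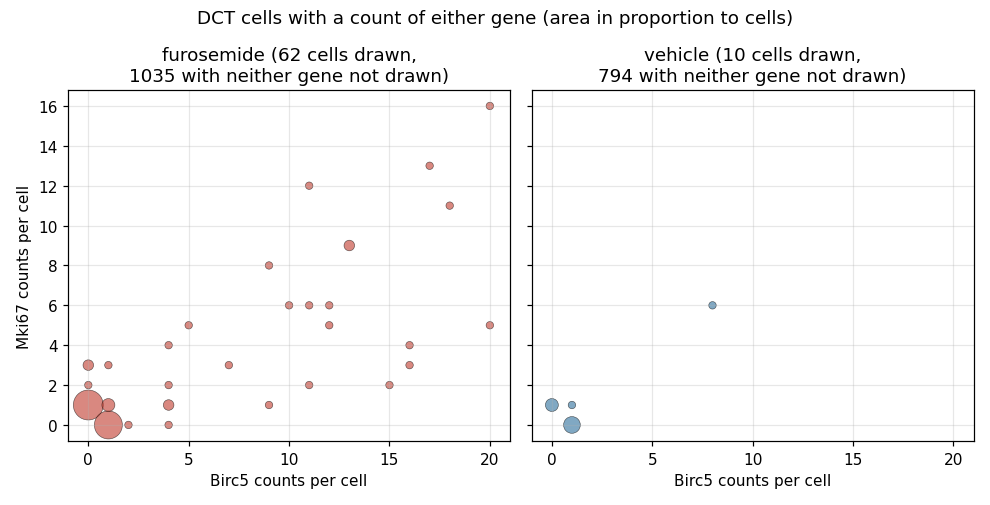
Each circle is a pair of Birc5 (x) and Mki67 (y) counts per DCT cell, with area in proportion to the number of cells; cells with neither gene are not drawn. Of 62 furosemide cells drawn, 27 lie off both axes, against 2 of 10 vehicle cells, and the large circles beside the axes are cells with a single count of 1 gene.

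What else these cells expressed was asked in furosemide DCT cells, where every library had at least 3 cells with both. The 27 cells (5, 12 and 10 in libraries 2, 4 and 6) were set against 1035 cells with neither gene from the same libraries. Of the 27, 25 lay in the main DCT cluster of the authors' second clustering, 1 in the minor DCT cluster and 1 in the TAL cluster. All 27 held Slc12a3, as did all 1035 cells with neither gene. Their median total was 1812 counts, against 1330 for cells with neither. In edgeR's test on sums per library, with Birc5 and Mki67 left out, 46 of 242 genes (19.0%) were called, 18 higher (7.44%) and 28 lower (11.6%). Of the 46, 42 moved the same way in every library.

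The gene with the largest rise among the named ones was Ccne1, which encodes cyclin E1, the partner of Cdk2 at the entry into DNA synthesis. Ccne1 stood at 541.3, 377.3 and 887.9 CPM in cells with both in libraries 2, 4 and 6, against 8.24, 20.02 and 21.9 CPM in cells with neither. Its log2 fold change was 4.86 ± 0.65 (adjusted p = 1.1e-06). Ccne1 was too low in cells with neither to pass the filter on low counts there, so it passed through the cells with both. Its call held in all 8 other settings, the setting without that filter included, with log2 fold changes of 4.49 to 5.52. It was found in 10 of 27 cells with both (37.0%) and in 2.22% of cells with neither. Apart from the members, Ccne1 was the only gene of the cell cycle list that was tested. Cdk2 stood at 276.9 ± 155.9 CPM in cells with both and 92.0 ± 16.5 CPM in cells with neither (1.60 ± 0.61, adjusted p = 0.0628), and passed in 3 of 7 other settings.

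Cxcl10, a chemokine known to be induced by interferons, was also higher. Cxcl10 stood at 15560, 37180 and 39910 CPM in cells with both, against 4363, 6553 and 5754 CPM in cells with neither (2.23 ± 0.19, adjusted p = 2.0e-07). Isg15, a ubiquitin-like protein induced by interferons, stood at 3654, 6916 and 11400 CPM in cells with both, against 1125, 992 and 1648 CPM in cells with neither (2.35 ± 0.24, adjusted p = 1.1e-06). These libraries did not overlap for either gene. Cxcl10 was found in 19 of the 27 cells with both, with a median of 16 counts, and the highest cell held 582 of their 1811 counts. Isg15 was found in 16 of the 27, with a median of 1 count, and its highest cell held 121 of 423 counts. Icam1, an adhesion molecule, rose by 2.31 ± 0.40, Ly6e by 1.07 ± 0.18 and the chemokine receptor Cxcr4 by 1.91 ± 0.32. Icam1 was found in 11 of the 27 cells, the highest of which held 27 of its 53 counts, and it lost its call with thinned cells (adjusted p = 0.0703).

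Col4a1, a collagen chain of the basement membrane, stood at 1113 ± 498 CPM in cells with both and 124.9 ± 33.4 CPM in cells with neither (2.85 ± 0.39, adjusted p = 1.1e-06). Bak1, a pore-forming protein of apoptosis, rose by 1.33 ± 0.30, a call that was lost with thinned cells (adjusted p = 0.270). Hist1h1c, a linker histone, stood at 7037, 1383 and 6215 CPM in cells with both, against 649, 618 and 531 CPM in cells with neither (2.61 ± 0.42, adjusted p = 0.00462). It was found in as many cells of either kind (37.0% with both and 38.5% with neither), and 5 cells with at least 20 counts carried its sum. Without library 2 its adjusted p was 0.218, the highest of a range from 1.1e-24 over the other settings.

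The 27 cells were not alike. Ccne1 was found in 10 of them and at least 10 counts of Isg15 in 9, and 2 cells met both criteria. All 5 cells with at least 20 Hist1h1c counts were among those 9. The shares of Isg15 and Cxcl10 had r = 0.89 and rho = 0.51 across the 27 cells, and those of Birc5 and Ccne1 had r = -0.17 and rho = -0.15. These are descriptions over cells of 3 libraries.

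Slc12a3, the sodium chloride cotransporter of the DCT, stood at 72000, 71260 and 76020 CPM in cells with both, against 102500, 112300 and 93390 CPM in cells with neither (-0.66 ± 0.11, adjusted p = 4.3e-05). Trpm6, the magnesium channel of the DCT, stood at 1948 ± 310 CPM in cells with both and 3819 ± 191 CPM in cells with neither (-1.15 ± 0.22, adjusted p = 1.5e-04). Neither gene's libraries overlapped. Of 8 DCT markers tested, 6 were called lower (Kcnj10, Ppp1r1a, Slc12a3, Trpm6, Wnk1 and Wnk4) and 0 higher, with a median of -0.64 against -0.07 over all 242 genes. The calls of Slc12a3 and Trpm6 held in all 8 other settings, that of Wnk4 in 7, those of Ppp1r1a and Wnk1 in 5 each and that of Kcnj10 in 3, and the libraries of Wnk1 overlapped. Atp1b1, the beta subunit of the sodium pump, fell by 0.62, Fxyd2, its gamma subunit, by 0.89, and Ckb, a creatine kinase, by 0.82, on the log2 scale.

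Egf, the precursor of epidermal growth factor, stood at 32070, 17690 and 27030 CPM in cells with both, against 62740, 47940 and 51800 CPM in cells with neither (-1.29 ± 0.13, adjusted p = 9.0e-09). Umod, or uromodulin, fell by 0.88 ± 0.11. Both are on the list of TAL markers, of which 8 were tested, 4 called lower (Egf, Slc12a1 and Umod among them) and 1 higher (Wfdc2), with a median of -1.26. The call of Slc12a1 held in 4 of the 6 other settings that tested it, and that of Wfdc2 in 6 of 8. Slc12a1, the target of furosemide, had 0 counts in the 27 cells and was at least 2.92-fold lower than in cells with neither, taking 3 counts over the group as the floor. The list's median was the same with Slc12a1 at that bound.

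Markers of other cell types in the 27 cells were as follows. The 4 CNT markers of the panel summed to 87020 to 181500 CPM in cells with both and 40540 to 68590 CPM in cells with neither. Of these, S100g, the calcium-binding calbindin-D9k, stood at 103900, 140300 and 32160 CPM in cells with both, against 12140, 7237 and 14310 CPM in cells with neither. In cells with both, 3 cells (1 of library 2 and 2 of library 4) held 3713 of the 4767 S100g counts (77.9%). These 3 cells had 2 to 15 Umod counts and 3 to 25 Egf counts, beside medians of 89 and 33 over the 27. The S100g log2 fold change of 2.70 ± 1.07 did not pass (adjusted p = 0.293), but did so at 3.55 without library 6 (adjusted p = 5.8e-13, with up to 0.772 in the other settings). Calb1, another CNT marker, did not differ beyond its error (-0.04 ± 0.14, adjusted p = 0.921). Of 6 immune markers 5 were at 0, as were all 4 podocyte, both endothelial and all 5 stromal markers, and 4 of 5 intercalated markers. The 12 proximal markers summed to 1090 to 2368 CPM in cells with both and 2419 to 2810 CPM in cells with neither. The part of S100g in the other differences was not tested.

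Of 5 growth control genes tested edgeR called 0, with 2 (Cdkn1a and Cdkn1b) under 0.05 before adjustment and a median of 0.65. With RLE size factors in place of TMM scaling edgeR called 1, Cdkn1a. Cdkn1a, which encodes the inhibitor p21, stood at 1143 ± 644 CPM in cells with both and 648 ± 327 CPM in cells with neither (0.86 ± 0.33, adjusted p = 0.0803), and passed in 4 of 8 other settings. Ccnd1, or cyclin D1, stood at 1989 ± 589 CPM in cells with both and 2422 ± 90.9 CPM in cells with neither (-0.45 ± 0.25, adjusted p = 0.234). Myc was not tested for lack of counts. Tfrc, the transferrin receptor that takes up iron, was called lower (-0.56 ± 0.19, adjusted p = 0.0374), with 3789, 4276 and 10160 CPM in cells with both, against 6306, 7357 and 8762 CPM in cells with neither. Library 6 went the other way, and the call held in 3 of 8 other settings. Egf was the 1 gene called of 9 on growth factors and IGF signalling (median -0.31), and Tfrc the 1 of 3 on iron and heme (median -0.56). Of 7 tubular injury genes (median 0.25) and 6 immediate early and heat shock genes (median -0.08) edgeR called 0, with 1 of each list under 0.05 before adjustment and at most 1 called in any other setting.

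Between treatments, Tfrc in DCT cells was higher with furosemide (log2 fold change 1.30, adjusted p = 0.0113), and with the cells holding both genes left out it was 1.34 (adjusted p = 0.0166). Ckb was higher too (0.54, edgeR adjusted p = 0.0498) and Slc12a1 lower (-1.23, adjusted p = 0.0113). These 3 genes were also called in the cells holding both genes, where 19.0% of 242 genes were called, each of the 3 lower there. Of the 13 genes called between furosemide and vehicle DCT cells, 9 were called again without those cells, among 10 of 272. Birc5 and Mki67 then had too few counts to be tested. This repeat was chosen after the data were seen. The wider group of 62 cells with either gene gave 27 calls of 242 (11.2%) against cells with neither, 13 higher and 14 lower, and all 27 were among the 46 above. These cells include the 27 with both.

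Outside the DCT, 54 cells held both genes, 12, 19 and 9 in furosemide libraries 2, 4 and 6 and 5, 6 and 3 in vehicle libraries 1, 3 and 5. Each of the 46 genes was set beside cells with neither of the same classes and library, a comparison chosen after the DCT values were seen. The mean log2 ratio, with 100 CPM added to each value, had the same sign as in the DCT for 33 of 46 genes. These were 14 of the 18 higher and 19 of the 28 lower genes. The same share over the other tested genes was not computed, so these counts are a description. For 9 genes all 6 libraries moved the same way, which gives the smallest p of an exact sign-flip permutation test over 6 libraries (0.0312, adjusted 0.160), so none passed.

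Ccne1 outside the DCT stood at 255.1, 160.7 and 135.9 CPM in cells with both of furosemide libraries and 263.2, 167.4 and 250.2 CPM in those of vehicle libraries. Cells with neither stood at 2.96 to 17.8 CPM. Ccne1 was thus higher in cells with both in 6 of 6 libraries of either treatment, by a mean log2 ratio of 1.48. The 100 CPM added exceeds the level in cells with neither and lowers this ratio, so its size cannot be set beside the DCT fold change. Without it the means were 205.4 CPM in cells with both and 7.96 CPM in cells with neither. These values rest on 21 counts in 17 of 54 cells with both. Vehicle libraries 1, 3 and 5 had only 5, 6 and 3 such cells, so their Ccne1 values rest on very few counts. Col4a1 (1.05), Ly6e (1.00), Fkbp4 (0.95), Bak1 (0.88), Rheb (0.78) and Wfdc2 (1.05) were also higher in 6 of 6 libraries. Isg15 had a mean log2 ratio of -1.71 and was higher in 1 of 6 libraries, Hist1h1c -0.64 and 4 of 6, and Cxcl10 0.23 and 4 of 6. Summed by class over all libraries, Cxcl10 was higher in cells with both in CNT (14390 against 4674 CPM) and TAL (31260 against 11380). Cxcl10 was also higher in CCD principal (3402 against 1434) and proximal cells (7045 against 1800). It was lower in Immune (12810 against 16740) and in the 3 DCT2 cells (210.6 against 2223). In CNT, TAL and DCT2 all cells with both came from furosemide libraries, while cells with neither came from libraries of both treatments. Treatment and library thus enter these class sums, which are a description. Cxcl2, a chemokine that was called higher in the DCT, was lower in 6 of 6 libraries outside it (-3.46). The DCT call held in 5 of the 6 other settings that tested it. It rested on 4 of 27 cells, with 0 CPM in library 2. Outside the DCT, 5 of 54 cells with both held Cxcl2, and cells with neither reached 17260 CPM in vehicle library 3. All 8 Immune cells with both lay in Macrophages sub2 of the second clustering. Isg15 stood at 180.4 CPM in those 8 cells and 5484 CPM in Immune cells with neither. The part of the Immune cells in these values was not tested.

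**Figure D4:**
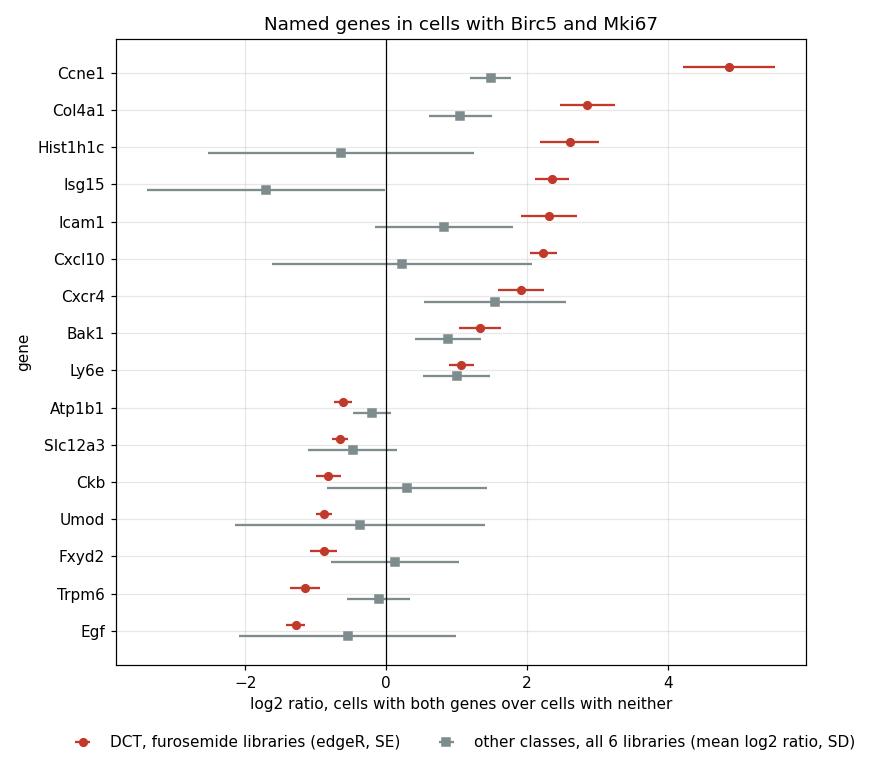
For each of 16 named genes, circles give the edgeR log2 fold change (± SE) of DCT cells with both Birc5 and Mki67 over cells with neither in furosemide libraries, and squares the mean log2 ratio (± SD over 6 libraries, 100 CPM added) in all other classes. Ccne1, Col4a1, Ly6e and Bak1 lie right of 0 in both, while Isg15 and Hist1h1c lie left of 0 outside the DCT. The added 100 CPM draws the ratios of low genes towards 0, so circles and squares are not comparable in size.

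The genes whose pattern over the 90 sums of library and class was most like that of Birc5 were Mki67 (Pearson's r = 0.65), Pvalb (0.37), Tfrc (0.29), Calb1 (0.28) and Trpm6 (0.27), on log2 CPM with a prior count of 2. In vehicle libraries alone the last 3 stood at -0.10, -0.04 and -0.05. For Mki67 they were Birc5 (0.65), Il10 (0.63), Itgax (0.61), Nlrp3 (0.60) and Ccr2 (0.58). Many of these sums held 0 counts, and sums of a library share its depth, so these values describe the table only.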

How the data were processed

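Single kidney cells were captured on BD Rhapsody beads and sequenced from whole-transcriptome and targeted libraries, per the labels' protocols. The submitters' processing notes name Bowtie2 2.2.9. The sources used here give no genome build and no counting step, and leave unsaid if counts are of molecules or of reads. The authors deposited whole-number counts for 22154 cells and 456 genes, from which doublets and a mixed cluster had been removed and cell numbers made equal, per the file names. The deposited annotation holds labels for each cell, of library, treatment and class, and calls every cell a singlet. Library numbers could not be joined to the replicate numbers of the sample titles.

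Counts were summed per library and class, with at least 10 cells a sum. The robust quasi-likelihood test of edgeR 4.0.16 (R 4.3.3) was run on these sums after filterByExpr and TMM scaling, and p-values adjusted by Benjamini-Hochberg over all genes tested, at 0.05. CPM is relative to the panel's total, since only counts of the panel's genes were used. DESeq2 1.42.0 and limma-voom 3.58.1 were alternatives. Shares of cells and counts per positive cell were compared by exact two-sided permutation over 20 assignments of libraries. Cells with both genes were compared with cells with neither with the library as a block, without the 2 genes that chose them. Limits printed for a count of 0 use 3 counts and cover counting error only. Median counts per cell were 1073 to 1539.5, which limits the detection of low transcripts. Scripts were tested on simulated data.

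In cells with both genes, the genes named are the 10 called higher and the 10 called lower with the lowest adjusted p that moved the same way in every library, called list members, Ccnd1, Myc, Cdkn1a and Tfrc, and by likeness the 5 with the highest r. Some of these genes are not reported here. Others were named after their values were seen. Members, lists and tests were chosen with earlier results of these data known.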

Additional observations from a re-analysis of the deposited data

Results flagged for a closer look

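The effect of furosemide on Birc5 differed between DCT cells and the summed proximal classes by the test of the difference itself (4.52 on the log2 scale, edgeR adjusted p = 0.0394). Of the 10 such differences computed for the 2 genes, it was the 1 that passed, and leaving out any of 4 libraries ended the call. Groups of 3 libraries are too small for a test of single outlying libraries.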

How the results depend on the processing

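No paired analysis was possible because the library numbers of the table carry no link to the replicate numbers of the sample titles. Over all cells, Birc5 lost its call with library size alone (1.45), no filter (1.54), limma-voom (1.51), thinned cells (1.25) and without the top totals (1.37), and leaving out a library gave 1.33 to 1.76 (Mki67 1.69 to 1.97). In DCT cells this range was 3.51 to 4.62 for Birc5 and 3.20 to 4.37 for Mki67. In TAL, Birc5 passed with DESeq2 (2.57), limma-voom (2.49), without the top totals (2.69) and in the second clustering (2.55). Without the filter the Mki67 difference between DCT and Immune passed (3.82). The uncalled values that changed sign when a library was left out were Mki67 in Immune (-0.77 to 0.22), Birc5 in Proximal s1/s2/s3 (-0.42 to 0.95) and Proximal s2/s3 (-2.60 to 0.35), the differences of DCT from CNT (Birc5 -0.71 to 1.53, Mki67 -4.09 to 0.83) and the shares with both in Immune (-0.404 to 0.959 percentage points) and proximal cells (-0.0905 to 0.0589, and 0.0119 when thinned). The difference of Birc5 between DCT and proximal cells ranged from 4.14 to 5.21. In cells with both, thinning gave 9 genes higher and 18 lower, library size alone 18 lower, and leaving out a library 14 to 21 lower. Cells with either gave 3 lower with library size alone and 6 against deeper cells, and 2 to 19 higher and 3 to 8 lower without a library. The median of all genes in cells with both was -0.07, and 0.08 with library size alone, where Slc12a3, Trpm6, Egf and the other named lower genes stayed lower. The causes were not tested. Precision was limited by 2 vehicle DCT cells with both genes and by the 3 libraries per group.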
